A study of Mus musculus with 4 samples.

Results

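The 8 CC chemokine genes Ccl2, Ccl3, Ccl4, Ccl5, Ccl6, Ccl7, Ccl9 and Ccl12 were chosen by symbol from the 19737 genes of a single-cell RNA sequencing table of mouse brain myeloid cells. All 8 had a row in the table, and all 8 passed the filter on low counts. The experiment asked how microglia respond to an activating antibody against TREM2, a lipid-sensing receptor of microglia, when the antibody is carried into the brain. Each of 20 mice received 1 intravenous dose of 10 mg kg-1, and brain cells sorted for CD11b, a myeloid surface protein, were captured 24 h later. The 5 groups held 4 mice each, with a recorded age of 8 months, and every mouse carried a human transferrin receptor knock-in. WT ATV:ISO and WT ATV:4D9 mice had no other change, and AppSAA ATV:ISO, AppSAA 4D9 and AppSAA ATV:4D9 mice also carried AppSAA, a knock-in of the amyloid precursor protein gene with familial Alzheimer's disease mutations. 4D9 is the TREM2 antibody. ATV:4D9 is 4D9 with an Fc part that binds the human transferrin receptor, which ferries it across brain vessels, and ATV:ISO is a control antibody with the same Fc part. The control arm is labelled ATV-DNP02 in the deposited cell table and was read as ATV:ISO. All mice were recorded as male except 1 WT ATV:ISO mouse, recorded as female. The sources give the dissected tissue as cortex in one place and as cortex with hippocampus in another, and the sort as CD11b alone or as CD45 with CD11b. Tissue was dissociated with enzymes at a warm temperature before the sort.

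CC chemokines are small secreted proteins with a pair of adjacent cysteines that attract leukocytes through G protein-coupled receptors. Ccl2, Ccl7 and Ccl12 are monocyte chemoattractant proteins that act mainly through Ccr2, Ccl3 and Ccl4 are macrophage inflammatory proteins, and Ccl5 is made by T and NK cells as well as by activated myeloid cells. Ccl6 and Ccl9 are rodent myeloid chemokines that act through Ccr1, and Ccl6, like Ccl3 and Ccl4, is known from microglia near amyloid plaques.

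The 8 genes lie in 2 groups on mouse chromosome 11 (GRCm38, GENCODE vM21 annotation). Ccl2 (82035571 to 82037453), Ccl7 (82045712 to 82047525) and Ccl12 (82101845 to 82103400) follow each other on the plus strand. Ccl5 (83525778 to 83530518), Ccl9 (83572919 to 83578636), Ccl6 (83587882 to 83593087) and Ccl3 (83647844 to 83649355) lie on the minus strand, and Ccl4 (83662584 to 83664683) lies beside them on the plus strand. The 250 bases before the annotated start were held for 4 of the 8 genes in the RefSeq promoter table (GRCm38.p6), and all 4 are shown. These genes moved differently: Ccl12 rose most, and Ccl3 rose with both genotype and antibody. Ccl6 rose with AppSAA and fell with ATV:4D9, and Ccl9 showed small differences. A link between the letters and these differences was not tested. The RefSeq start of Ccl3 lies 23 bases upstream of the GENCODE start given above, and for the other 3 genes the starts are the same. Sequences read 5′ to 3′ on the gene's own strand, and capitals mark matches to the searched motifs.
Ccl12 (chr11:82101595-82101844, plus strand): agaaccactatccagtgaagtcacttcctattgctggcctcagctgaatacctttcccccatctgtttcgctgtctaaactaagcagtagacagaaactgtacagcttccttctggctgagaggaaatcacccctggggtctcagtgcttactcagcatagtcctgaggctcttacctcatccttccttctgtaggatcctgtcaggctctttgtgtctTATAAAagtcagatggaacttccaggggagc
Ccl9 (chr11:83578637-83578886, minus strand): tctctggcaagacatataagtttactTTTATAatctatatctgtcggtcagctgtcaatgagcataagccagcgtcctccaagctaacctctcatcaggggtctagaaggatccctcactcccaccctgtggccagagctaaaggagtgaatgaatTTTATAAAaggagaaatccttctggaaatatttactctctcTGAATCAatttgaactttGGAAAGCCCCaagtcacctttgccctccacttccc
Ccl6 (chr11:83593088-83593337, minus strand): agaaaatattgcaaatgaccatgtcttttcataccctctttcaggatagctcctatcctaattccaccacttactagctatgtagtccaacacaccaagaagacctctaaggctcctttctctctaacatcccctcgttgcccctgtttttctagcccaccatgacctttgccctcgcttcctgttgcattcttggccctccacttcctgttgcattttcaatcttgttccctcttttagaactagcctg
Ccl3 (chr11:83649379-83649628, minus strand): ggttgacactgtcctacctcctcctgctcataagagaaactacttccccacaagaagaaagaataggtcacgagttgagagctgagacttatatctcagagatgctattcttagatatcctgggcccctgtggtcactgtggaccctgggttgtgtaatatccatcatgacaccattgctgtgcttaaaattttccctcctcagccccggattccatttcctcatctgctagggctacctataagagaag
The motifs searched on both strands were TATAAA, the AP-1 motif TGANTCA, the interferon-stimulated response element and the kappa-B motif, to which NF-kB binds. Ccl12 held TATAAA from -31 to -26, counted from the start. Ccl9 held a kappa-B match from -35 to -26, an AP-1 match from -53 to -47 and 3 TATAAA matches, of which those from -94 to -89 and from -92 to -87 overlap. The windows of Ccl6 and Ccl3 held none of these letters. Of 32851 promoter windows of this length, 12.4% held TATAAA, 6.75% the AP-1 motif, 2.98% the interferon-stimulated response element and 7.25% the kappa-B motif. The matches are a description of letters and do not show a bound site.

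The table held 74758 cells with a median of 11351 unique molecular identifiers (UMIs, each counting 1 captured RNA molecule), and 17150296 to 102446549 UMIs per mouse. Depth per cell differed between groups: the median per mouse was 6859 to 8174 UMIs in WT ATV:ISO, 8445 to 9884 in AppSAA ATV:ISO, 8293 to 11553 in AppSAA 4D9, 13479 to 17290 in WT ATV:4D9 and 13560 to 16475 in AppSAA ATV:4D9. Levels below are counts of the gene over all UMIs of the mouse, in the usual CPM unit, so a difference is relative to all other RNA of the cells. The 6 microglial markers summed to 21917 to 32580 CPM in every mouse, and 3 cells held more UMIs of another list, that of border macrophages, than of microglial markers. Markers of T and NK cells summed to at most 0.605 CPM, and those of monocytes to 4.09 to 10.3 CPM in 4 groups and 10.0 to 13.7 CPM in AppSAA ATV:4D9. The 5 mice of a pool (1 of each group) shared 1 capture. 543 barcode sequences occurred in more than 1 pool, and none occurred more than once within a pool.

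Differences were tested with edgeR's quasi-likelihood test over 14058 genes with Benjamini-Hochberg adjustment, with 0.05 as the limit for a call. With ATV:4D9 against ATV:ISO in WT mice, 6 of the 8 chemokines rose and 0 fell, where 30.8% of all genes rose and 32.5% fell. With AppSAA under ATV:ISO, 3 rose and 0 fell, beside 14.4% and 13.7% of all genes. ATV:4D9 against ATV:ISO in AppSAA mice raised 6 and lowered 1, beside 27.9% and 27.1% of all genes, and against 4D9 it also raised 6 and lowered 1, beside 27.6% and 26.7%. Between the genotypes under ATV:4D9, 5 were higher in AppSAA and 0 lower, beside 7.84% and 3.98% of all genes. The median log2 fold change over the 8 genes was 1.35 in WT mice and 1.33 in AppSAA mice for ATV:4D9 against ATV:ISO, beside -0.05 and -0.03 over all genes. The comparisons share control mice, so their counts are not independent of each other. These fits did not pair the mice by pool. Calls that were added by a fit with the pool as a block are given by gene below.

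4D9 without the transferrin receptor-binding Fc left the 8 genes near the level of AppSAA ATV:ISO mice. The log2 fold changes ran from -0.14 (Ccl12, SE 0.24) to 0.32 (Ccl5, SE 0.37). edgeR called 0 of the 8 and 0% of all genes higher and 0% lower, with 79 of 14058 genes and 0 of the 8 chemokines at an unadjusted p under 0.05. DESeq2 and limma-voom also called 0 of the 8, and 0 of the 8 had an unadjusted p under 0.05 by either.

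**Figure D1:**
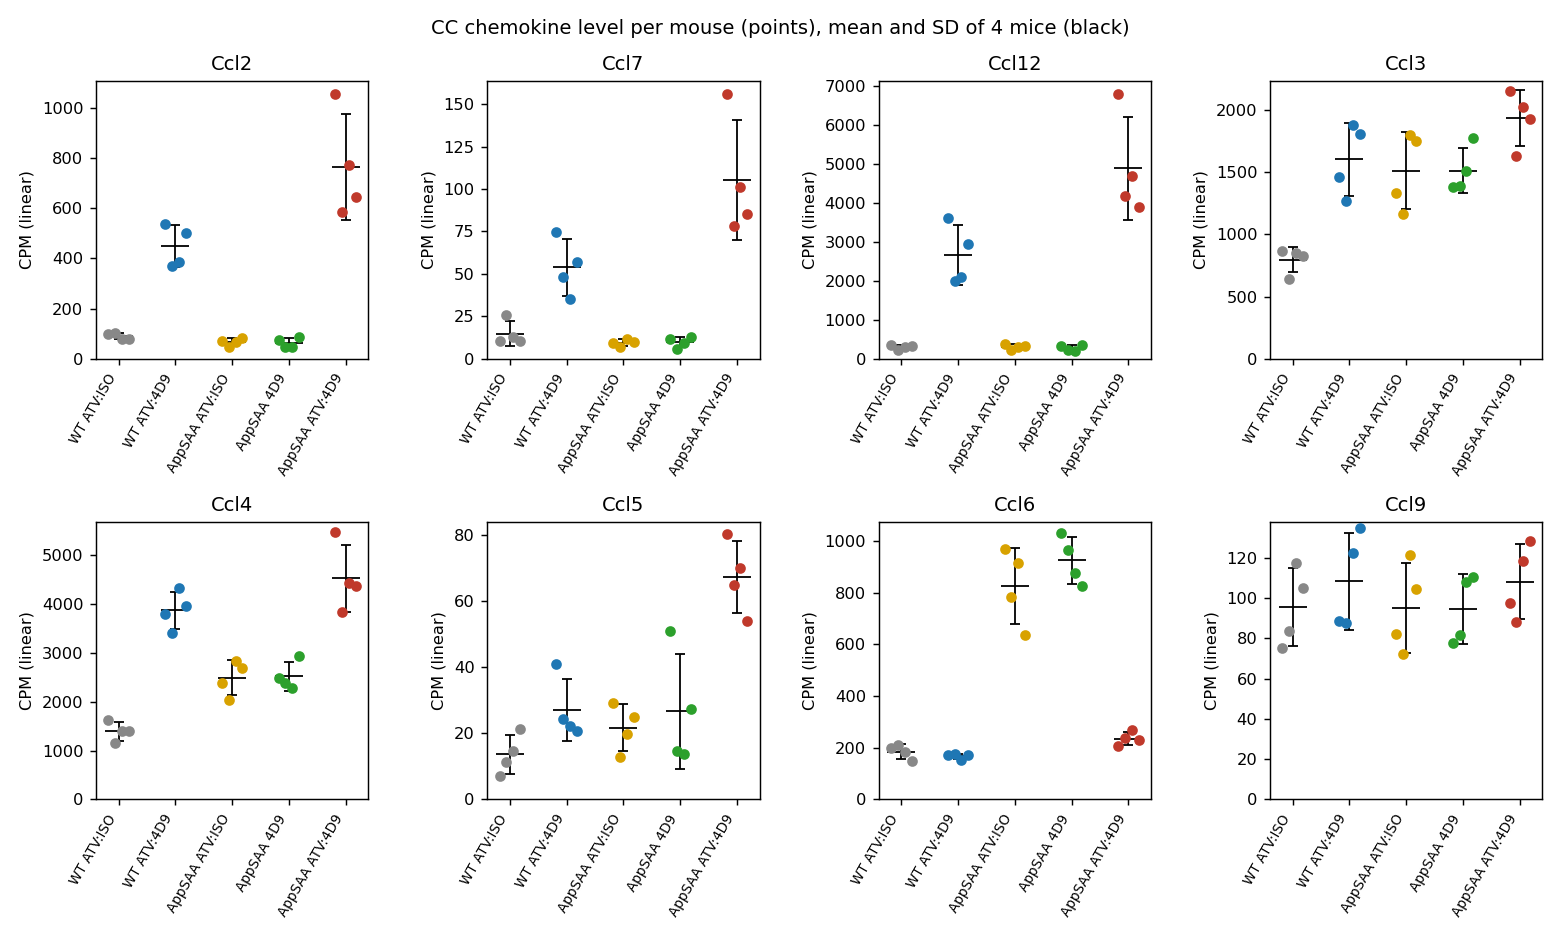
Level of each chemokine in CPM (vertical axis, linear, starting at 0) in each mouse, drawn as points by group, with the mean and SD of 4 mice in black. Ccl12 lay between 1984 and 6795 CPM in the 8 ATV:4D9 mice and at or under 387 CPM in the other 12, and Ccl6 was high in the AppSAA ATV:ISO and AppSAA 4D9 mice.

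Ccl12, a monocyte chemoattractant protein, showed the largest fold of the 8 genes with ATV:4D9 in both genotypes. Its level in the mice of pools 1 to 4 was 357, 228, 288 and 313 CPM in WT ATV:ISO, 387, 231, 291 and 313 CPM in AppSAA ATV:ISO and 322, 231, 209.7 and 341 CPM in AppSAA 4D9. It was 3599, 1984, 2095 and 2955 CPM in WT ATV:4D9 and 6795, 4172, 4676 and 3885 CPM in AppSAA ATV:4D9. The 3 groups without ATV:4D9 overlapped, every ATV:4D9 mouse lay above them, and every AppSAA ATV:4D9 mouse lay above the WT ATV:4D9 mice. The rise was 9.78-fold in WT mice (log2 3.29 ± 0.27, SE, edgeR adjusted p = 1.78e-09) and 17-fold in AppSAA mice against ATV:ISO (log2 4.09 ± 0.28, adjusted p = 2.01e-10). AppSAA under ATV:ISO gave a log2 difference of 0.23 ± 0.24 that was not called (adjusted p = 0.53).

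Ccl2, the main ligand of Ccr2, moved the same way. It was at 98.8, 101, 77.1 and 80.3 CPM in the WT ATV:ISO mice and at 539, 369.8, 387 and 501 CPM in the WT ATV:4D9 mice. In AppSAA it was at 70, 45.6, 64.8 and 82 CPM with ATV:ISO, 74.7, 45.8, 48.5 and 85.1 CPM with 4D9 and 1056, 584, 774 and 644 CPM with ATV:4D9. No ATV:4D9 mouse overlapped a mouse of another treatment, and the ATV:4D9 mice of the 2 genotypes did not overlap each other. The rise was 5.46-fold in WT mice (log2 2.45 ± 0.25, edgeR adjusted p = 4.47e-08) and 12.5-fold in AppSAA mice (log2 3.64 ± 0.26, adjusted p = 4.43e-10).

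Ccl7, a further monocyte chemoattractant, rose in both genotypes as well. It was at 10.1, 25.7, 12.5 and 10.5 CPM in WT ATV:ISO and 74.7, 48.1, 35 and 57.3 CPM in WT ATV:4D9. The AppSAA mice held 9.27, 6.8, 11.8 and 10.1 CPM with ATV:ISO, 11.8, 5.81, 9.51 and 12.7 CPM with 4D9 and 156, 78.1, 101 and 85.5 CPM with ATV:4D9. The ATV:4D9 mice again lay above all others, and those of the 2 genotypes did not overlap. The rise was 4-fold in WT mice (log2 2.00 ± 0.33, edgeR adjusted p = 2.41e-05) and 11.9-fold in AppSAA mice (log2 3.57 ± 0.34, adjusted p = 3.26e-08). In the WT ATV:ISO mouse of pool 2, 1 cell held 319 of the Ccl7 UMIs, 60.6% of that mouse's total, and the mouse was at 10.1 CPM without it. That cell also held 449 Ccl2 UMIs and was 1 of the 3 cells led by border macrophage markers (271 UMIs, beside 229 of microglial markers).

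The share of cells with a UMI rose with the level. Of Ccl12 it was 59.4 to 82.7% of cells over the WT ATV:ISO mice and 95.3 to 98.9% over the WT ATV:4D9 mice, and after thinning every cell to 5000 UMIs, which evens out depth, 46.9 to 69.5% and 86.3 to 92.9%. Thinning left out 1084 WT ATV:ISO, 402 WT ATV:4D9, 1275 AppSAA ATV:ISO, 961 AppSAA 4D9 and 587 AppSAA ATV:4D9 cells under 5000 UMIs. The thinned share for Ccl2 was 15 to 25.2% in WT ATV:ISO, 35.7 to 49.5% in WT ATV:4D9, 11.4 to 23.7% in AppSAA ATV:ISO and 43.4 to 68.9% in AppSAA ATV:4D9 (unthinned 20.5 to 38.1%, 54.5 to 74.7%, 20.9 to 42.6% and 59 to 83.7%). Ccl7 stayed in a minority of cells, at 3.69 to 5.1%, 6.36 to 9.63%, 2.73 to 4.77% and 8.84 to 17.1% in the same order (unthinned 5.52 to 9.34%, 12.9 to 22.3%, 5.33 to 10.2% and 16.1 to 30.5%). Cells with UMIs of all of Ccl2, Ccl7 and Ccl12 made up a mean of 2.40% of cells in WT ATV:ISO, 3.19% in AppSAA ATV:ISO, 3.43% in AppSAA 4D9, 14.8% in WT ATV:4D9 and 21.3% in AppSAA ATV:4D9. These last shares were not thinned.

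Nearly all cells were microglia, so no cell type that should lack these genes gave a measure of free RNA in the droplets. Mice of 1 pool shared that RNA, so the mouse with the lowest thinned share in a pool bounds it for mice of similar or greater depth per cell: 46.0% to 65.9% of cells for Ccl12 and 11.4% to 23.7% for Ccl2 over the 4 pools, each from an AppSAA ATV:ISO or AppSAA 4D9 mouse. For Ccl7, from the same groups, it was 2.73% to 4.77%. For Ccl4 it was 71.7% to 90.5%, from the WT ATV:ISO mice, for Ccl5 1.88% to 3.28%, from WT ATV:ISO mice in 3 pools, and for Ccl6 45.5% to 48.9%, from WT mice. Thinning takes away more free RNA from deeper cells. In pools 1 to 3 the Ccl6 value came from WT ATV:4D9 mice (median 13479 to 17290 UMIs per cell over that group). It is no bound for the shallower WT ATV:ISO, AppSAA ATV:ISO and AppSAA 4D9 cells. Shares of the mice that set a value, and Ccl6 shares of those shallower cells, were not read as cells that express the gene. Median depth was 6859 to 8174 UMIs in WT ATV:ISO mice. It was 8445 to 9884 in AppSAA ATV:ISO and 8293 to 11553 in AppSAA 4D9 mice. Values set by AppSAA mice are thus no firm bound for WT ATV:ISO cells. UMIs of Ccl2 and Ccl12 did not keep 1 ratio: there were 0.256 to 0.443 Ccl2 UMIs per Ccl12 UMI in the WT ATV:ISO mice (median 0.272), 0.150 to 0.186 in WT ATV:4D9, 0.181 to 0.262 in AppSAA ATV:ISO, 0.198 to 0.250 in AppSAA 4D9 and 0.140 to 0.166 in AppSAA ATV:4D9. The highest, 0.443, was the WT ATV:ISO mouse of pool 2. There the cell led by border macrophage markers held 449 Ccl2 and 124 Ccl12 UMIs.

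**Figure D2:**
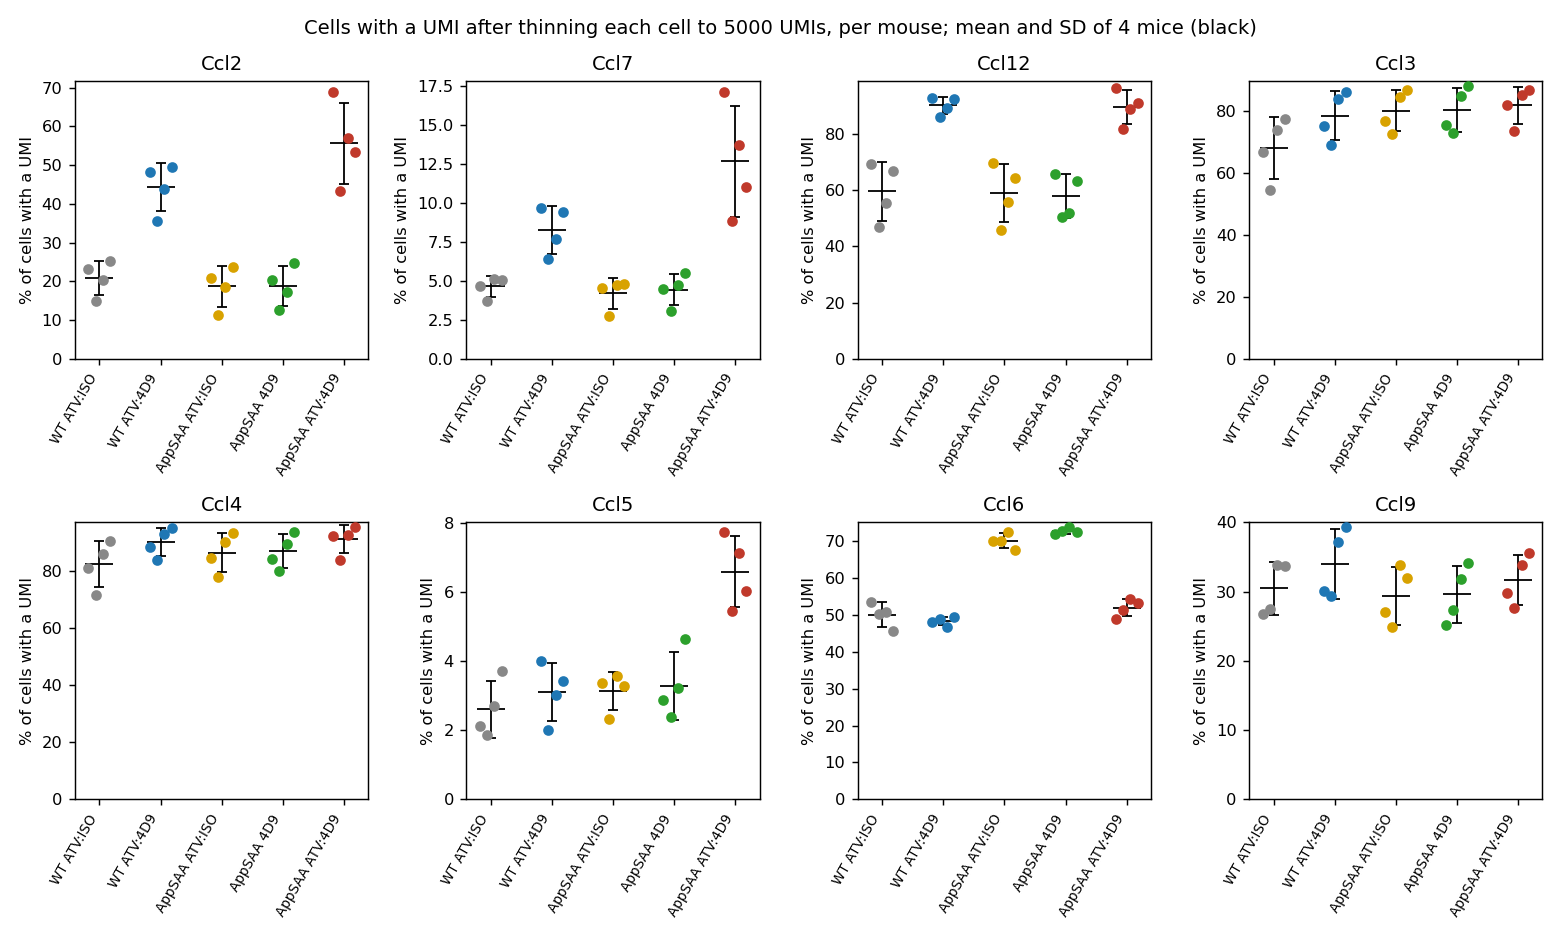
Percent of cells with at least 1 UMI of each chemokine after thinning every cell to 5000 UMIs (vertical axis, linear, starting at 0), 1 point per mouse, with the mean and SD of 4 mice in black. Ccl12 and Ccl2 were seen in more cells of every ATV:4D9 mouse than of any other mouse, and Ccl7 and Ccl5 stayed under 20% of cells in all groups.

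Ccl3 and Ccl4, macrophage inflammatory proteins, were higher with AppSAA alone and higher again with ATV:4D9. Ccl3 was at 867, 645, 849 and 826 CPM in WT ATV:ISO, 1338, 1168, 1799.6 and 1750.0 CPM in AppSAA ATV:ISO and 1382, 1389, 1507 and 1773 CPM in AppSAA 4D9. With ATV:4D9 it was at 1459, 1265, 1879 and 1812 CPM in WT and 2158, 1634, 2024 and 1931 CPM in AppSAA. The WT ATV:ISO mice lay below all others, and the other 4 groups overlapped. Ccl3 rose 2.18-fold with ATV:4D9 in WT mice (log2 1.12 ± 0.14, edgeR adjusted p = 9.81e-07) and 2.15-fold with AppSAA under ATV:ISO (log2 1.10 ± 0.14, adjusted p = 6.35e-06). The further rise with ATV:4D9 in AppSAA mice was 1.36-fold (log2 0.44 ± 0.14, adjusted p = 0.0119). Without the AppSAA ATV:4D9 mouse of pool 1 this call was lost (log2 0.34, adjusted p = 0.0587), as it was among cells of 1000 to 25000 UMIs (log2 0.33, adjusted p = 0.0526). Against 4D9 the same held (log2 0.43 ± 0.14, adjusted p = 0.015, 0.0719 without that mouse and 0.0694 among those cells). With the pool as a block and all mice, Ccl3 was called against ATV:ISO and against 4D9 (edgeR adjusted p = 3.34e-04 and 6.06e-04).

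Ccl4 fell into 3 steps of level. It was at 1634, 1157, 1397 and 1406 CPM in WT ATV:ISO, 2389, 2033, 2842 and 2692 CPM in AppSAA ATV:ISO and 2478, 2378, 2280.3 and 2933 CPM in AppSAA 4D9. With ATV:4D9 it was at 3789.5, 3409.8, 4321 and 3950.5 CPM in WT and 5468, 3829.9, 4426 and 4363 CPM in AppSAA. WT ATV:ISO was lowest, AppSAA ATV:ISO and AppSAA 4D9 lay in the middle, and the ATV:4D9 groups of both genotypes, which overlapped, lay on top. The rise was 2.99-fold with ATV:4D9 in WT mice (log2 1.58 ± 0.14, edgeR adjusted p = 6.73e-09), 2.01-fold with AppSAA (log2 1.01 ± 0.14, adjusted p = 1.27e-05) and 1.93-fold with ATV:4D9 in AppSAA mice (log2 0.95 ± 0.14, adjusted p = 8.90e-06). Ccl4 was found in 71.7 to 90.5% of thinned WT ATV:ISO cells and 84 to 95.4% of thinned AppSAA ATV:4D9 cells (unthinned 80.8 to 96.5% and 93.1 to 99.4%).

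The ratio of the paired genes changed with ATV:4D9. There were 0.530 to 0.608 Ccl3 UMIs per Ccl4 UMI in WT ATV:ISO and 0.560 to 0.650 in AppSAA ATV:ISO, against 0.371 to 0.459 in WT ATV:4D9 and 0.395 to 0.457 in AppSAA ATV:4D9. The mean difference between ATV:4D9 and ATV:ISO was -0.158 in WT and -0.174 in AppSAA (2-sided exact permutation test, p = 0.0286 each, the smallest that 4 against 4 mice can give, and 0.0429 adjusted over the 3 comparisons made). Every ATV:4D9 mouse lay below every ATV:ISO mouse of its genotype. AppSAA ATV:ISO and WT ATV:ISO differed by 0.0338 (exact p = 0.286, adjusted 0.286). The mice of these groups overlapped over all pools, but the ratio was higher in AppSAA in 4 of 4 pools, by 0.0171 to 0.0629. With the mice paired by pool, a choice made after seeing the data, the exact permutation test gave p = 0.125 for each of the 3 comparisons, the smallest that 4 pairs allow.

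Ccl5 was sparse and highest in AppSAA ATV:4D9. It was at 7.23, 11.4, 14.8 and 21.2 CPM in WT ATV:ISO, 41, 24.5, 22.3 and 20.8 CPM in WT ATV:4D9 and 29.2, 12.9, 19.8 and 25 CPM in AppSAA ATV:ISO. The AppSAA 4D9 mice held 50.8, 14.6, 13.8 and 27.2 CPM and the AppSAA ATV:4D9 mice 80.4, 64.9, 70 and 54 CPM. AppSAA ATV:4D9 lay above all other mice, and the other 4 groups overlapped. The rise in AppSAA was 3.29-fold (log2 1.72 ± 0.38, edgeR adjusted p = 7.02e-04). In WT it was 2.17-fold (log2 1.12 ± 0.39, adjusted p = 0.0171), a call that was lost without the WT ATV:ISO mouse of pool 1 (adjusted p = 0.0570), without the WT ATV:4D9 mouse of pool 1 (0.0859), among cells of 1000 to 25000 UMIs (0.0872) and without cluster 3 (0.0689). With the pool as a block and all mice and cells, it was called in WT (edgeR adjusted p = 0.00759).

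Few cells carried Ccl5. It was seen in 1.88 to 3.71% of thinned WT ATV:ISO cells and 5.46 to 7.73% of thinned AppSAA ATV:4D9 cells (unthinned 2.76 to 5.99% and 9.73 to 14.4%). The 1% of cells with most Ccl5 UMIs held a mean of 68.3% to 80.9% of them per group, where those for Ccl4 held 9.22% to 17.8%. In the AppSAA 4D9 mouse of pool 1, 1 cell held 609 Ccl5 UMIs, 43.5% of the mouse's total, and the mouse was at 28.7 CPM without it. T and NK markers were at most 0.605 CPM in any mouse. Leaving out the top cell of each gene in each mouse, a choice made after seeing the data, changed no call of the 8 genes in any comparison over all cells.

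Ccl6 went the other way. It was at 199, 211, 183 and 147 CPM in WT ATV:ISO and 169.9, 176, 154 and 171 CPM in WT ATV:4D9. In AppSAA it was at 968, 784, 914 and 636 CPM with ATV:ISO, 1029.8, 966, 875 and 826 CPM with 4D9 and 205, 239, 268 and 229 CPM with ATV:4D9. The AppSAA ATV:ISO and 4D9 mice overlapped and lay far above all others. The summed level of 3 endothelial markers was also highest in these groups: it was 37.5 to 52.2 CPM in AppSAA ATV:ISO and 39.0 to 49.0 CPM in AppSAA 4D9, beside 18.3 to 24.4 CPM in WT ATV:ISO, 9.49 to 12.9 CPM in WT ATV:4D9 and 13.2 to 25.9 CPM in AppSAA ATV:4D9. Over all mice Flt1 was at 1.08 to 43.4 CPM, Pecam1 at 3.71 to 20.9 CPM and Cldn5 at 0 to 0.416 CPM. The sum does not show that each of the 3 moved, and the source of these UMIs was not tested. Ccl6 rose 5.07-fold with AppSAA (log2 2.34 ± 0.15, edgeR adjusted p = 4.32e-10) and fell 3.36-fold with ATV:4D9 in AppSAA mice (log2 -1.75 ± 0.15, adjusted p = 4.31e-09), while the WT difference was -0.03 ± 0.14 (adjusted p = 0.871). Per cell the WT groups did not overlap, with 1391 to 1752 Ccl6 UMIs per 1000 cells with ATV:ISO and 2631 to 3207 with ATV:4D9, where cells also held more UMIs in all. In AppSAA there were 7781 to 11104 per 1000 cells with ATV:ISO and 3661 to 4591 with ATV:4D9. The fall per cell was thus smaller than the fall in CPM. The thinned share of cells was 45.5 to 53.5% in WT ATV:ISO, 67.6 to 72.5% in AppSAA ATV:ISO and 48.9 to 54.4% in AppSAA ATV:4D9 (unthinned 60.6 to 65.3%, 78.2 to 82.8% and 75 to 81.5%).

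Ccl9 differed least in CPM. Its mean was 95.4 ± 19.3 CPM in WT ATV:ISO (SD, n = 4), 108 ± 24 in WT ATV:4D9, 95 ± 22.2 in AppSAA ATV:ISO, 94.5 ± 17.2 in AppSAA 4D9 and 108 ± 18.6 in AppSAA ATV:4D9, and all groups overlapped. Per cell, Ccl9 was at 589.6 to 1038 UMIs per 1000 cells in WT ATV:ISO and 1304 to 2531 in WT ATV:4D9, which did not overlap, and at 816 to 1475, 780.1 to 1544 and 1347 to 2317 in AppSAA ATV:ISO, AppSAA 4D9 and AppSAA ATV:4D9. The log2 difference with ATV:4D9 was 0.30 ± 0.16 in WT and 0.26 ± 0.16 in AppSAA, not called by edgeR (adjusted p = 0.1 and 0.165). Ccl9 in WT was called without the WT ATV:ISO mouse of pool 3 (0.0486) or the WT ATV:4D9 mouse of pool 2 (0.0358). Mice of pools 3 and 4 were higher than those of pools 1 and 2 in every group. With the pool as a block, Ccl9 was called higher with ATV:4D9 in WT (adjusted p = 4.80e-04), in AppSAA against ATV:ISO (0.001) and against 4D9 (0.00157), and with AppSAA under ATV:ISO (0.0354). The last is a TMM-scaled difference (log2 0.17) that CPM did not show. In CPM the AppSAA ATV:ISO mouse was above the WT ATV:ISO mouse in pools 1 and 3 and below it in pools 2 and 4.

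**Figure D3:**
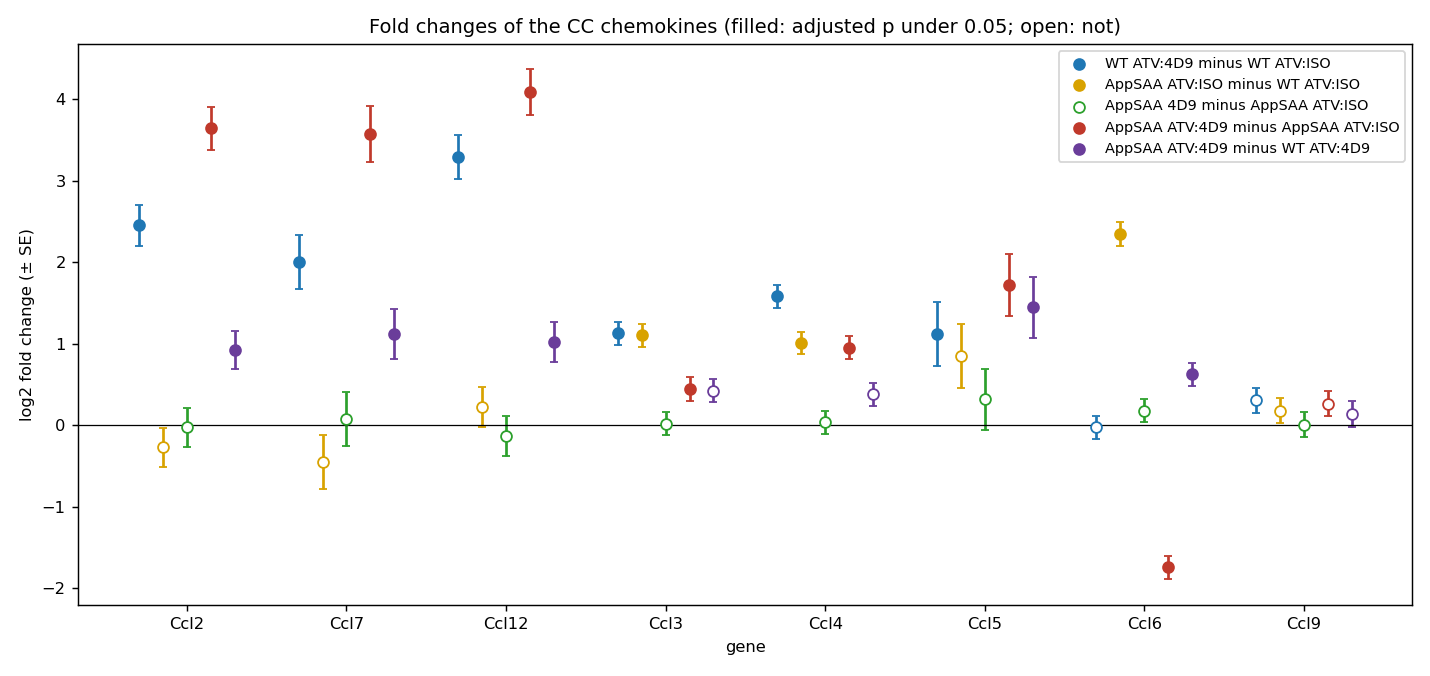
Log2 fold change of each chemokine in 5 comparisons (vertical axis, with SE as bars), filled where the edgeR adjusted p was under 0.05 and open where it was not. Ccl12, Ccl2 and Ccl7 rose with ATV:4D9 in both genotypes, Ccl6 rose by 2.34 with AppSAA and fell by 1.75 with ATV:4D9 in AppSAA mice, and the points for 4D9 lie near 0.

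Between the genotypes under ATV:4D9, Ccl12 was 2.03-fold higher in AppSAA (log2 1.02 ± 0.25, edgeR adjusted p = 0.00784), and Ccl5 2.72-fold (adjusted p = 0.0129) and Ccl6 1.54-fold higher (adjusted p = 0.00505). Ccl2 was 1.89-fold higher (adjusted p = 0.0125), a call lost without the WT mouse of pool 2 (0.0532) or the AppSAA mouse of pool 1 (0.0560). Ccl7 was 2.17-fold higher (adjusted p = 0.0195), lost without the WT mouse of pool 2 (0.0667) or 3 (0.0741) or the AppSAA mouse of pool 1 (0.0832). With the pool as a block and all mice, Ccl2 and Ccl7 were called (edgeR adjusted p = 2.84e-04 and 0.00284). Ccl3 and Ccl4 gave log2 0.42 ± 0.14 and 0.38 ± 0.14 (adjusted p = 0.0586 and 0.0836) and were called with the pool as a block (0.00182 and 0.00692) without the AppSAA mouse of pool 2 (0.0306 and 0.0413) or without the cells of cluster 3 (0.0427 and 0.0458). The monocyte marker sum was also highest in AppSAA ATV:4D9, as given above, but its 5 genes did not move together. Plac8 was at 7.89 to 10.3 CPM in those mice, 2.37 to 5.32 CPM in WT ATV:4D9 and 0.557 to 2.04 CPM in the other groups. Ccr2 was lower with ATV:4D9 (1.27 to 3.23 CPM in WT and 1.30 to 2.66 CPM in AppSAA, beside 2.30 to 6.06 CPM in the other groups), and Ly6c2, Chil3 and Vcan were at most 0.871 CPM in any ATV:4D9 mouse.

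The difference between the genotypes in the effect of ATV:4D9 was tested as an interaction, in which 3.79% of all genes were called higher and 5.35% lower. Of the 8 chemokines, 2 were higher, with a larger effect in AppSAA: Ccl2 (log2 1.19 ± 0.33, edgeR adjusted p = 0.0278) and Ccl7 (1.57 ± 0.45, 0.032). A further 3 were lower: Ccl6 (-1.72 ± 0.20, 2.24e-05), Ccl3 (-0.68 ± 0.20, 0.0356) and Ccl4 (-0.63 ± 0.19, 0.0456). For Ccl3 and Ccl4 the starting level in AppSAA ATV:ISO was higher, and the levels reached overlapped. With the pool as a block, edgeR adjusted p was 7.82e-04 for Ccl2, 0.00842 for Ccl7, 8.79e-04 for Ccl3 and 0.00138 for Ccl4. In fits without the pool, leaving out each mouse in turn gave 1 to 4 calls, and Ccl6 was called each time. The call for Ccl2 was lost (adjusted p 0.0515 to 0.0677) without the WT ATV:ISO mouse of pool 1 or 2, the WT ATV:4D9 mouse of pool 2 or 3, or the AppSAA ATV:ISO mouse of pool 2 or 3. That for Ccl7 was lost (0.0505 to 0.104) without WT ATV:ISO pool 2, WT ATV:4D9 pool 2, 3 or 4, AppSAA ATV:ISO pool 2 or 4, or AppSAA ATV:4D9 pool 1. That for Ccl3 was lost (0.0552 to 0.0819) without WT ATV:ISO pool 2, 3 or 4, WT ATV:4D9 pool 3 or 4, AppSAA ATV:ISO pool 3 or 4, or AppSAA ATV:4D9 pool 2 or 3. That for Ccl4 was lost (0.0583 to 0.100) without WT ATV:ISO pool 2, 3 or 4, WT ATV:4D9 pool 1, 3 or 4, AppSAA ATV:ISO pool 1, 3 or 4, or AppSAA ATV:4D9 pool 2, 3 or 4. The Ccl7 interaction was also not called without the 3 cells led by border macrophage markers (log2 1.12, adjusted p = 0.0723) or among cells of 1000 to 25000 UMIs (1.45, 0.0522). Ccl12 gave 0.80 ± 0.35 (adjusted p = 0.177, and 0.00126 with the pool as a block), and Ccl5 gave 0.60 ± 0.54 (adjusted p = 0.573, and 0.188 with the block).

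The authors had grouped the cells into 6 clusters, numbered 0 to 5, from gene expression that included these genes, so levels by cluster are a description. WT ATV:ISO gave sums of 20 cells or more from 3 mice in cluster 1, 0 in cluster 4 and 1 in cluster 5, WT ATV:4D9 from 1 mouse in cluster 1, and all other groups from 4 mice. The shares of cells in them differed by treatment. Clusters 0 and 3 held a mean of 60.4% and 35.8% of WT ATV:ISO cells and 3.11% and 4.56% of WT ATV:4D9 cells, while clusters 2 and 4 held 1.35% and 0.351% against 47.8% and 40%. Cluster 1 held 38.3% of AppSAA ATV:ISO cells and 13.5% of AppSAA ATV:4D9 cells, and cluster 5 held 2.48% and 22.4%. Cluster 3 had the highest sum of immediate early genes (28918 CPM, beside 4590 to 10694 CPM in the others). Median depth per cell was 7178 UMIs in cluster 0, 8877 in cluster 3 and 14334 to 18034 in the other 4.

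Over mice of all groups, cluster 5 held the highest median level of Ccl12 (4509 CPM), Ccl2 (559.8), Ccl7 (111) and Ccl5 (204), and its median was also the highest in each of the 5 groups for these 4 genes. For Ccl12 cluster 2 and, where it gave sums, cluster 4 followed in each group, with group medians of 836 to 4014 and 507 to 3737 CPM. Clusters 0, 1 and 3 lay below them in each group, at 164 to 771 CPM apart from 1849 CPM in the only WT ATV:4D9 mouse with a sum in cluster 1. Ccl5 stood apart most, since clusters 0 to 4 were at 8.24, 15.8, 27.4, 11 and 11.7 CPM. The range over mice was wide, from 23.3 to 606 CPM for Ccl5 and from 1707 to 16459 CPM for Ccl12 in cluster 5. The thinned share of cells with Ccl5 was 12.6% in cluster 5 and 2.75% to 4.29% in the others.

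By level, Ccl3 and Ccl4 were spread over clusters 1 to 5 and low in cluster 0. Ccl3 was at a median of 354 CPM in cluster 0 and 1456 to 1959 CPM in the others, and Ccl4 at 524 and 2472 to 4417 CPM. Cluster 5 led for Ccl4 with ATV:4D9 (9205 CPM in WT and 6166 in AppSAA, beside 3779 and 4462 in cluster 2), and cluster 2 led without it (3763, 4371 and 5222 CPM in WT ATV:ISO, AppSAA ATV:ISO and AppSAA 4D9, beside 2185, 3146 and 3759.6 in cluster 5). Ccl6 was highest in cluster 1 over all mice, with 1038 CPM beside 232 to 405 CPM elsewhere. Within clusters 2 and 4 its medians were 736 and 944 CPM in AppSAA ATV:ISO and 166 and 193 CPM in AppSAA ATV:4D9. The order of clusters for Ccl9 differed between groups: cluster 1 was lowest in AppSAA ATV:ISO, AppSAA 4D9 and AppSAA ATV:4D9 (medians 73.5, 68.3 and 36.3 CPM), and the highest was cluster 2 in the 3 groups without ATV:4D9 (190.3 to 208 CPM), cluster 4 in AppSAA ATV:4D9 (127 CPM) and cluster 5 in WT ATV:4D9 (122 CPM). In a finer deposited clustering into 9 clusters, numbered anew, the same cluster held the highest median in each of the 5 groups for Ccl12, Ccl2 and Ccl7, and in 4 groups for Ccl5, where another, with 1 mouse, was higher in WT ATV:4D9. The cluster that led for Ccl12 also led for Ccl4 with ATV:4D9 (9009.7 CPM in WT and 6249 in AppSAA), and a different one led without it (3776, 4628 and 4477 CPM in WT ATV:ISO, AppSAA ATV:ISO and AppSAA 4D9). The leading cluster for Ccl6 differed between groups.

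**Figure D4:**
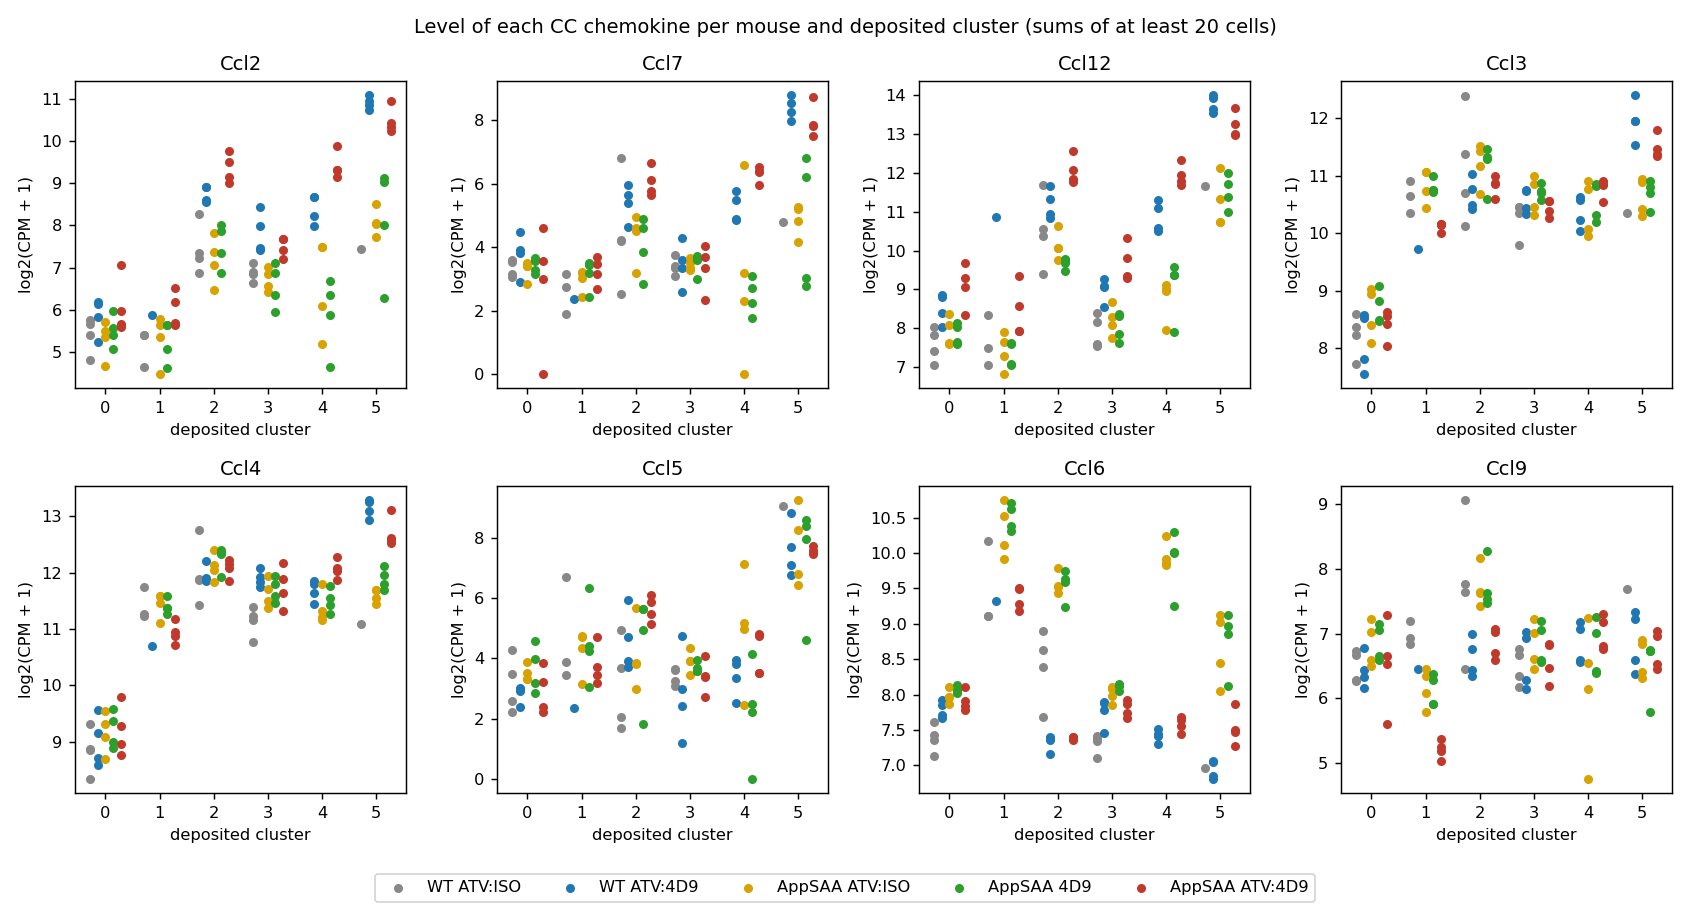
Level of each chemokine per mouse (points, coloured by group) in each deposited cluster (horizontal axis), as log2(CPM + 1) of counts summed over the mouse's cells in the cluster, for sums of at least 20 cells. Over all mice cluster 5 held the highest median of Ccl12, Ccl2, Ccl7 and Ccl5, cluster 1 that of Ccl6, and cluster 0 the lowest Ccl3 and Ccl4 medians.

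The clusters that supplied a gene's UMIs changed with treatment. In WT ATV:ISO, clusters 0 and 3 held a mean of 34.6% and 33.7% of the Ccl12 UMIs, and in WT ATV:4D9 clusters 2, 4 and 5 held 41.9%, 32.3% and 24.9%. Cluster 3, highest in immediate early genes, held 63.1% of the Ccl3 and 65.8% of the Ccl4 UMIs in WT ATV:ISO, from 35.8% of the cells. In AppSAA ATV:ISO cluster 1 held 62.4% and 57.5% of them, from 38.3% of the cells. In AppSAA ATV:4D9 cluster 5 held 43.6% of the Ccl12 UMIs, 53.3% of the Ccl7 UMIs and 61.7% of the Ccl5 UMIs, from 22.4% of the cells. Cluster 1 held 80.6% of the Ccl6 UMIs in AppSAA ATV:ISO and 31.2% in AppSAA ATV:4D9.

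**Figure D5:**
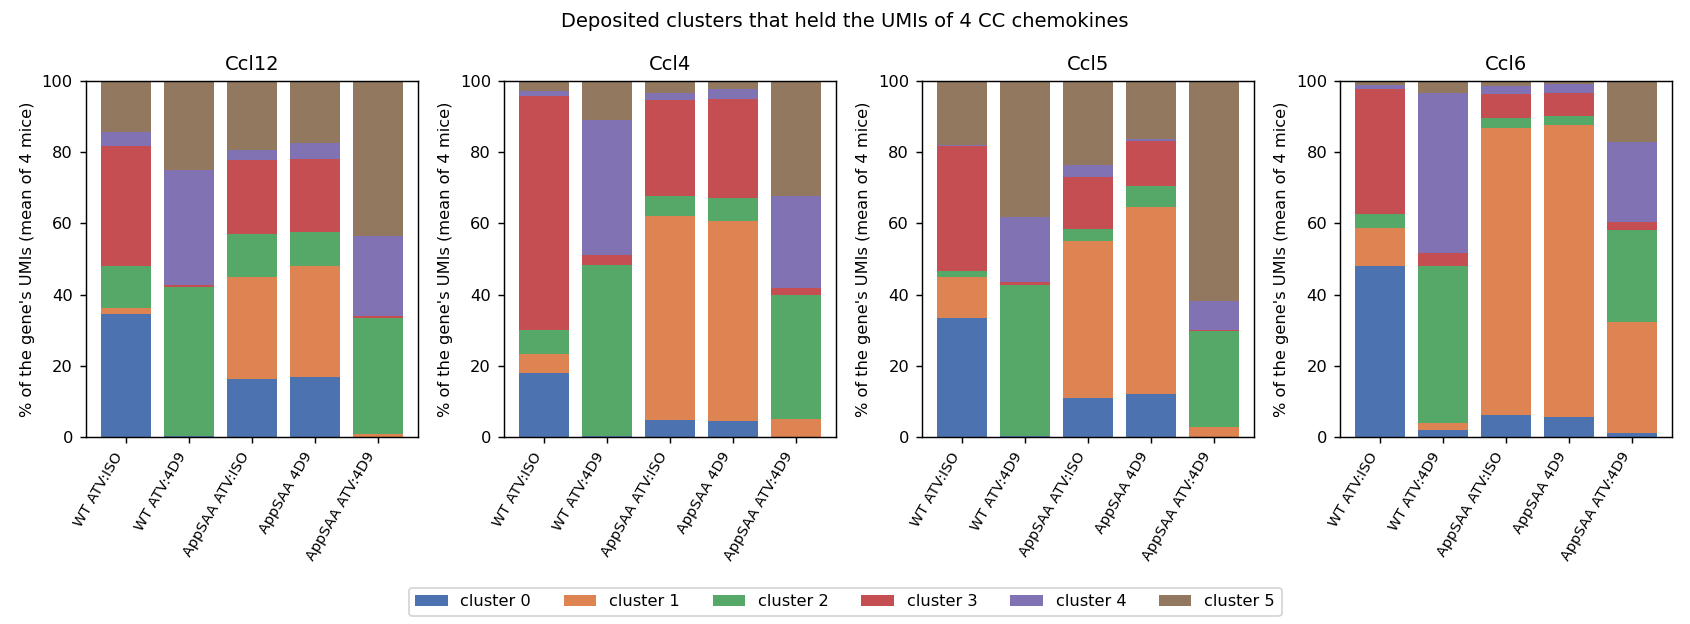
Share of the UMIs of Ccl12, Ccl4, Ccl5 and Ccl6 (vertical axis, percent, mean of 4 mice) that came from each deposited cluster, as stacked bars by group. In AppSAA ATV:4D9 mice cluster 5 held 43.6% of Ccl12 and 61.7% of Ccl5 UMIs, and in AppSAA ATV:ISO mice cluster 1 held 80.6% of Ccl6 UMIs.

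Part of the differences was also seen inside a cluster. The clusters were made from the expression of the treated cells, and their shares of cells changed with treatment. A difference inside a cluster compares the cells assigned to it in each group. A change within cells and a change in which cells a cluster held cannot be told apart here. In cluster 3, ATV:4D9 in WT mice raised 4 of the 8 genes (6.17% of all genes called in either direction): Ccl12 (185 to 337 CPM with ATV:ISO, 373 to 615 CPM with ATV:4D9, log2 1.15 ± 0.25, edgeR adjusted p = 0.00453), Ccl2 (log2 1.11 ± 0.23, 0.00298), Ccl4 (0.83 ± 0.16, 0.00229) and Ccl6 (0.56 ± 0.11, 0.00187). In AppSAA mice 2 rose there (4.33%): Ccl12 (1.64 ± 0.25, 2.31e-04), and Ccl2 (0.92 ± 0.23, 0.019), whose call was lost without the AppSAA ATV:ISO mouse of pool 2 or 3 or the ATV:4D9 mouse of pool 2 or 4 (adjusted p = 0.0578 to 0.0777). AppSAA under ATV:ISO raised 1, Ccl6 (0.189% of all genes, log2 0.72 ± 0.10, adjusted p = 0.00256). With the pool as a block, Ccl9, Ccl3 and Ccl4 were also called higher there with AppSAA (log2 0.36, 0.41 and 0.53, adjusted p = 4.50e-04, 0.00562 and 0.0168), and Ccl3 with ATV:4D9 in WT (0.39, 0.00149). The sums of this cluster came from 104 to 242 cells in WT ATV:4D9 and 68 to 268 in AppSAA ATV:4D9 mice, and from 799 to 1448 with ATV:ISO.

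In cluster 0 ATV:4D9 raised 2 genes in WT mice (1.47% of all genes called): Ccl12 (log2 1.00 ± 0.24, edgeR adjusted p = 0.0306) and Ccl6 (0.44 ± 0.11, 0.0341). It raised 1 in AppSAA mice (0.667%), Ccl12 (1.23 ± 0.25, 0.0128). All 3 calls were lost without single mice: Ccl12 in WT without ATV:ISO pool 2 or 3 or ATV:4D9 pool 1, 2 or 4 (adjusted p 0.0626 to 0.152), Ccl6 in WT without ATV:ISO pool 2, 3 or 4 or any ATV:4D9 mouse (0.0580 to 0.167), and Ccl12 in AppSAA without ATV:ISO pool 2 or 3 or ATV:4D9 pool 1 or 4 (0.0521 to 0.113). AppSAA under ATV:ISO raised 1, Ccl6 (0.274%, log2 0.61 ± 0.10, adjusted p = 0.00169), a call kept without each mouse in turn. With the pool as a block, Ccl12, Ccl9, Ccl3 and Ccl4 were also called higher there with AppSAA (log2 0.36, 0.39, 0.43 and 0.34), and Ccl2 with ATV:4D9 in WT (0.45) and in AppSAA (0.75). The 3 calls with ATV:4D9 then had edgeR adjusted p = 1.14e-11 (Ccl12, WT), 2.26e-04 (Ccl6, WT) and 1.50e-12 (Ccl12, AppSAA). Ccl12 CPM of the mice overlapped in both genotypes. The sums came from 60 to 186 cells in WT ATV:4D9, 37 to 195 in AppSAA ATV:4D9 and 1070 to 1930 with ATV:ISO.

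In cluster 1, where AppSAA cells with high Ccl6 lay, 3 genes were lower with ATV:4D9 in AppSAA mice (1.51% of all genes called). The sums of this cluster came from 355 to 785 cells per mouse with ATV:4D9 and 1160 to 2269 with ATV:ISO. Whether cells high in these genes had left the cluster was not tested. Ccl9 was at 54.4 to 86.6 CPM with ATV:ISO and 31.7 to 40.6 CPM with ATV:4D9 (log2 -0.94 ± 0.13, edgeR adjusted p = 1.75e-04), Ccl3 at 1383 to 2148 CPM with ATV:ISO and 1024 to 1141 CPM with ATV:4D9 (-0.68 ± 0.12, 0.00389) and Ccl6 at 969 to 1721 CPM with ATV:ISO and 579 to 725 CPM with ATV:4D9 (-0.95 ± 0.23, 0.0467). The ranges did not overlap for any of the 3, and the call for Ccl6 was lost without ATV:ISO pool 1, 2 or 3 or any ATV:4D9 mouse (adjusted p 0.0613 to 0.144). Over all cells Ccl3 had risen and Ccl9 was not called in the same comparison. Ccl12 was higher in every ATV:4D9 mouse of this cluster but not called (log2 1.17 ± 0.29, adjusted p = 0.0504), and was called without ATV:ISO pool 1 (0.0262) or ATV:4D9 pool 2 (0.0258) or 3 (0.0324). With the pool as a block Ccl12 was called (adjusted p = 1.85e-06), as were Ccl2 (log2 0.74, 2.75e-05) and, lower, Ccl4 (-0.46, 0.00762), which was also called without ATV:4D9 pool 1 (-0.57, 0.0432).

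Clusters 2, 4 and 5 allowed the 2 genotypes to be compared under ATV:4D9. In cluster 4, 2 genes were higher in AppSAA (2.76% of all genes called): Ccl12 (log2 1.14 ± 0.27, edgeR adjusted p = 0.0149) and Ccl2 (1.11 ± 0.29, 0.037). These calls were lost without single mice: Ccl12 without WT pool 2 or 3 or AppSAA pool 1 (adjusted p 0.0794 to 0.102), and Ccl2 without WT pool 2, 3 or 4 or AppSAA pool 1, 3 or 4 (0.0508 to 0.201). In cluster 5, 1 was higher (6.87%), Ccl6 (0.67 ± 0.18, 0.0247), lost without WT pool 1, 2 or 3 or AppSAA pool 3 (0.0529 to 0.112). In cluster 5 the log2 differences of Ccl12, Ccl2 and Ccl7 were -0.46 ± 0.25, -0.31 ± 0.28 and -0.28 ± 0.32, the opposite sign from those over all cells, and were not called (adjusted p = 0.324, 0.618 and 0.706). In cluster 2 edgeR called 0 of the 8 (2.07% of all genes), with 4 of 8 at an unadjusted p under 0.05, a limit at which all genes were not counted. There Ccl12 (log2 1.16, adjusted p = 0.0392) and Ccl5 (1.70, 0.00362) were called higher in AppSAA without WT pool 1, and Ccl12 also with at least 50 cells per sum (0.96, 0.00917). In cluster 4, Ccl7 was called without WT pool 1 (1.35, 0.0339) or with at least 50 cells per sum (1.11, 0.0175), and Ccl4 without AppSAA pool 2 (0.54, 0.0457). In cluster 5, Ccl3 (-0.55, 0.0462) and Ccl4 (-0.53, 0.00967) were called lower without AppSAA pool 1. With the pool as a block, the calls within clusters rose from 11 to 21 in clusters 0 and 3 and from 3 to 6 in cluster 1. In clusters 2, 4 and 5 they rose from 3 to 13. The share of all genes called with the block was not counted, so whether this rise was particular to the chemokines was not tested. The further calls with the block, higher in AppSAA, were Ccl2, Ccl7, Ccl12 and Ccl5 in cluster 2 (log2 0.72, 0.72, 0.93 and 1.12) and Ccl7, Ccl3, Ccl4 and Ccl5 in cluster 4 (1.15, 0.52, 0.47 and 0.98), and those lower in AppSAA were Ccl12 and Ccl4 in cluster 5 (log2 -0.46 and -0.34, adjusted p = 0.0153 and 0.0417).

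Of 14 receptor genes, 11 had a row and 8 were tested. Ccrl2, which binds chemerin and does not signal, rose with ATV:4D9 in WT (log2 0.66 ± 0.12, edgeR adjusted p = 9.25e-05), with AppSAA (0.73 ± 0.12, 1.13e-04) and with ATV:4D9 in AppSAA (0.53 ± 0.12, 9.98e-04). Ccr2, the receptor of Ccl2, fell with ATV:4D9 in both genotypes (log2 -0.88 ± 0.31 and -0.86 ± 0.30, adjusted p = 0.0189 and 0.0195), at 1.27 to 6.06 CPM. Ccr1, Ccr6, Ccr9 and Ccr10 were not called in any comparison, and Ccr3, at most 1.28 CPM in any mouse, fell with ATV:4D9 in WT (log2 -0.96) and in AppSAA against 4D9 (-0.70), and with AppSAA (-1.25).

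Among 12 other CC ligand genes, 10 had a row and 5 were tested. Ccl24, an eosinophil attractant, was at 8.40 to 9.89 CPM in WT ATV:ISO and fell with ATV:4D9 in WT (log2 -1.96 ± 0.17, edgeR adjusted p = 5.06e-09), with AppSAA (-0.81 ± 0.16, 0.000819) and with ATV:4D9 in AppSAA (-0.85 ± 0.17, 0.000236). Ccl27a fell with ATV:4D9 in both genotypes (log2 -0.46 and -0.55) and rose with AppSAA (0.41). Ccl25 fell with ATV:4D9 in WT (-0.26) and with AppSAA (-0.35). Ccl8 and Ccl22 were not called in any comparison, and Ccl1, Ccl11, Ccl17, Ccl19 and Ccl28 fell below the filter.

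Lists of regulators and response genes were counted beside the chemokines, and edgeR called 0 genes of any list with 4D9 against ATV:ISO in AppSAA. All 14 interferon response genes rose with ATV:4D9 in WT (median log2 2.23, -0.05 over all genes) and in AppSAA (2.95), and 11 of 14 rose with AppSAA (0.70). Cxcl10, also a chemokine of that list, rose by 4.31 ± 0.31 on the log2 scale with ATV:4D9 in AppSAA. Of 15 genes of the NF-kB list, 7 rose and 4 fell with ATV:4D9 in WT, 9 rose and 2 fell in AppSAA, and 4 rose and 3 fell with AppSAA. Tnf, an inflammatory cytokine of that list, was at 73.8 to 144 CPM in WT ATV:ISO and 555 to 956 CPM in WT ATV:4D9 (log2 2.74 ± 0.25, adjusted p = 8.92e-09). Of 15 immediate early genes, which also respond to tissue dissociation, 2 rose and 5 fell with ATV:4D9 in WT, 1 rose and 4 fell in AppSAA, and 4 rose and 1 fell with AppSAA. Of all genes, 30.8% rose and 32.5% fell in the first of these comparisons, 27.9% and 27.1% in the second and 14.4% and 13.7% in the third, and the counts of these lists were not tested against those of all genes. The summed immediate early level was 13298 to 16012 CPM in WT ATV:ISO and 9053 to 11404 CPM in WT ATV:4D9, and 11131 to 15918 CPM in AppSAA ATV:ISO and 9677 to 11145 CPM in AppSAA ATV:4D9. Without the cells of cluster 3, where that sum was highest, the calls of Ccl2, Ccl7, Ccl12, Ccl3, Ccl4 and Ccl6 were the same. This held with ATV:4D9 against ATV:ISO and with AppSAA. Ccl5 lost its call with ATV:4D9 in WT (log2 0.96, edgeR adjusted p = 0.0689). Leaving out cluster 3 took mostly control cells. It held 35.8% of WT and 25.1% of AppSAA cells with ATV:ISO, but 4.56% and 3.78% with ATV:4D9. In WT ATV:ISO it held 63.1% of the Ccl3 and 65.8% of the Ccl4 UMIs. An effect of dissociation on these calls was not tested.

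Over 27 sums of group by cluster with at least 100 cells, and among 8055 genes with a mean of at least 10 CPM, the genes with the most similar log2 CPM were named for each chemokine. Points of 1 group share libraries, so Pearson's r is a description. Ccl12 was most like Ccdc86 (r = 0.98), Psme2 (0.97) and Cxcl11 (0.97), Ccl2 like Ccl12 (0.95), Ccdc86 (0.94) and Cxcl10 (0.93), and Ccl7 like Cxcl11 (0.95), Psme2 (0.93) and Ccl12 (0.92). Ccl3 and Ccl4 were each other's nearest gene (0.98), followed by Gadd45b (0.93) and Bcl2a1d (0.92) for Ccl3 and Gm17056 (0.94) and Gem (0.93) for Ccl4. Ccl5 was nearest to Chmp4b (0.93), Nampt (0.93) and H2-T22 (0.91), and Ccl6 to Cd34 (0.95), Ramp1 (0.93) and Fyn (0.93). Ccl9 had no close match, with Gm16286 (0.75), Tatdn2 (0.74) and Dus1l (0.74) the nearest.

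Single cells of similar depth were also compared. Among cells of 10000 to 20000 UMIs, Ccl7 was seen in 21.5% to 31.1% of Ccl2-positive and 8.59% to 16.2% of Ccl2-negative cells over the AppSAA ATV:4D9 mice, higher in 4 of 4 mice. In WT ATV:4D9 the shares were 17.3% to 22% and 7.76% to 14.5%, again higher in 4 of 4 mice. They were 7.03% to 13.1% and 5.71% to 12.8% in WT ATV:ISO (3 of 4 mice), 7.23% to 12.9% and 6.3% to 9.34% in AppSAA ATV:ISO (4 of 4) and 4.58% to 13.8% and 6.2% to 11.5% in AppSAA 4D9 (3 of 4). Median depth was 14872 UMIs in Ccl2-positive and 13447.5 in Ccl2-negative AppSAA ATV:4D9 cells of this range. Ccl6 was seen more often in Ccl2-positive than in Ccl2-negative cells in 3 of 4 WT ATV:ISO, 1 of 4 WT ATV:4D9, 2 of 4 AppSAA ATV:ISO, 3 of 4 AppSAA 4D9 and 0 of 4 AppSAA ATV:4D9 mice. These shares were not tested.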

How the data were processed

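The authors deposited raw UMI counts per gene and cell, with a table of each cell's mouse, group and cluster. Per the submitters' processing notes, reads were processed with Cell Ranger 6.1.1 against mm10, and the study's methods name Seurat for the clusters. Counts were used as deposited, were added up for each mouse (and by cluster where a mouse had 20 cells or more there), then tested with edgeR 4.0.16 (R 4.3.3): TMM scaling, filterByExpr, a quasi-likelihood fit over the 5 groups, and Benjamini-Hochberg adjustment over all genes tested. The study names limma-voom for summed counts, which was run as an alternative (limma 3.58.1), as was DESeq2 1.42.0. The other alternatives were RLE scaling, no filter, the pool as a block, leaving out each mouse, and cells of 1000 to 25000 UMIs, outside one cluster, or without other markers. Doublet calls were not added here. The fits were tested on simulated data.

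All cells of the table were used. CPM use all UMIs of the mouse, whereas fold changes are TMM-scaled. Shares of cells are those expected after thinning to 5000 UMIs. The labels give 4 batches (pools), every one holding a mouse from all 5 groups, and this pairs the mice. Deviations from the group means correlated in all 40 pairs of mice in 1 pool (r = 0.145 to 0.607). The named genes were the 8 chemokines, the 3 genes most correlated with each, and the receptors and ligands of the lists that passed the filter, of which 1 receptor is not reported here. The members and lists were chosen with earlier results of these data known. Enzymes at dissociation and free RNA can change levels of these genes. The SE of a log2 fold change was worked back from edgeR's F statistic, as the size of the log2 fold change over the square root of F. It rests on the spread between mice as edgeR moderates it over genes, and the mice of 1 pool share a capture.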

Additional observations from a re-analysis of the deposited data

Results flagged for a closer look

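Among 40 groups of 4 mice (8 chemokines in 5 groups), 1 held a mouse far from the others, where chance gives about 1 in 20. The WT ATV:ISO mouse of pool 2 had 25.7 CPM of Ccl7, beside 10.1, 12.5 and 10.5 CPM in the other mice of its group. A single cell with 24090 UMIs, in cluster 4, held 60.6% of that mouse's Ccl7 UMIs and 21.7% of its Ccl2 UMIs, and the mouse was at 10.1 CPM of Ccl7 and 79.4 CPM of Ccl2 without it.

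The effect of ATV:4D9 differed between the genotypes for 5 chemokines by the edgeR interaction test. The log2 difference, AppSAA minus WT, was 1.19 for Ccl2, 1.57 for Ccl7, -0.68 for Ccl3, -0.63 for Ccl4 and -1.72 for Ccl6. Of these, Ccl6 was called without each mouse in turn, and the other 4 calls were lost without single mice. Those fits left the pool out. With the pool as a block and all mice, edgeR adjusted p was 7.82e-04 for Ccl2, 0.00842 for Ccl7, 8.79e-04 for Ccl3 and 0.00138 for Ccl4.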

How the results depend on the processing

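The counts of the 8 chemokines called by edgeR stayed within 1.5 times the reported count under RLE scaling, no filter, DESeq2, limma-voom and the 3 choices of cells. No fold change of a member that was called in either fit changed sign, over all cells or within a cluster. Changes of sign in fold changes called in neither fit were not counted. With the pool as a replicate block, calls went from 11 to 21 within clusters 0 and 3 and from 3 to 6 within cluster 1. Within clusters 2, 4 and 5 they went from 3 to 13, and with at least 50 cells per sum to 5. The share of all genes called was not counted in these fits or in those with 1 mouse left out. The cause was not tested. With the same block, added after seeing the data, the differences in Ccl3 UMIs per Ccl4 UMI stayed -0.158 in WT and -0.174 in AppSAA, with an exact permutation p = 0.125 each (adjusted 0.125), the smallest that 4 pairs allow. Leaving out each mouse in turn gave 5 to 7 calls for ATV:4D9 in WT, 3 to 3 for AppSAA, 0 to 0 for 4D9, 6 to 7 for ATV:4D9 in AppSAA against ATV:ISO and 6 to 7 against 4D9, 3 to 7 between the genotypes under ATV:4D9 and 1 to 4 for the interaction. Within clusters it gave 9 to 11, 2 to 3 and 0 to 5 calls in the order above. Over all cells, 43 of the fold changes with 1 mouse left out lost a call and 4 gained one, while 465 kept their side of the threshold. Thinning to 5000 UMIs moved 38 of 40 shares of cells by more than the spread between mice, and thinning to 3000 UMIs moved all 40. DESeq2 also called Ccl3 between the genotypes under ATV:4D9 (adjusted p = 0.0380).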
